A study of Mus musculus with 6 samples.

Results

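The Hedgehog genes described here are 9 in number: the ligand genes Shh, Ihh and Dhh, the receptor gene Ptch1, the signal transducer gene Smo, the transcription factor genes Gli1, Gli2 and Gli3, and Hhip, which encodes a decoy receptor. They were chosen by name as the core of the pathway, and they are 9 of the 30176 genes that have a row of their own on the array. Each of them has 1 row. RNA was taken from whole aggregates of mouse embryonic stem cells of the R1 line, grown in the liquid core of alginate microcapsules, and was hybridised to Clariom D arrays, which measure coding and non-coding mouse transcripts. The 3 arrays after pre-differentiation were from aggregates kept for 7 days in stem cell medium containing LIF and then for 3 days with BMP4 and bFGF. The 3 arrays before pre-differentiation were from aggregates at the end of the 7 days with LIF. In the methods the second medium is regular DMEM in which neither LIF nor Knockout serum is listed, so that medium and culture time change together with the factors. No genetic change is named for either group, and the labels do not say whether the GFP line or the plain line was used. The labels call the 3 arrays of a group biological replicates without saying that the cultures were separate, so the p-values measure the spread between these arrays, which may be partly technical. In RNA of whole aggregates, fewer cells of a type and less RNA per cell cannot be told apart.

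Hedgehog ligands are secreted proteins that bind the membrane protein Patched. Free Patched keeps Smoothened inactive, and bound Patched releases it, whereupon Smoothened acts at the primary cilium on the Gli factors. Gli1 is an activator and itself a target gene, Gli2 is mainly an activator, and Gli3 is in its processed form mainly a repressor. Ptch1 and Hhip are induced by the signal and restrain it. In the mouse embryo Ihh is made by the visceral endoderm and acts on the mesoderm of the yolk sac, while Shh is made by the node, the notochord and the gut endoderm.

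The promoters of the members were searched for short motifs close to the start sites, among them the pathway's own motif. RefSeq windows (GRCm38.p6) were at hand for 7 of the 9 members, all but Shh and Gli1. For these 7 the 250 bases before the start site were searched on both strands. The windows of Ihh, the member that passed the test, of Ptch1 and Hhip, known targets of the pathway, and of Gli3 are shown in lower case with each GC box (GGGCGG or its reverse complement) in capitals. They lie at chr1:74951673-74951922 (minus strand), chr13:63565736-63565985 (minus strand), chr8:80058009-80058258 (minus strand) and chr13:15463473-15463722 (plus strand).
Ihh: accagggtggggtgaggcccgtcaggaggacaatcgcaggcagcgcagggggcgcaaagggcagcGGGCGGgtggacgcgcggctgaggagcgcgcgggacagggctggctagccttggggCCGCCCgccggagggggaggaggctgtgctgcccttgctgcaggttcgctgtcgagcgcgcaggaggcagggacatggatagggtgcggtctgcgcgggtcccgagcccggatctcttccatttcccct
Ptch1: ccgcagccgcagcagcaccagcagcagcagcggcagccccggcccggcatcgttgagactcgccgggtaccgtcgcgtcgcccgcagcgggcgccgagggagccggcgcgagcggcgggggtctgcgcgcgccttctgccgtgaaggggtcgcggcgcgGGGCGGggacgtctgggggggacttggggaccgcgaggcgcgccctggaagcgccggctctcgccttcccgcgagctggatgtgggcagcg
Hhip: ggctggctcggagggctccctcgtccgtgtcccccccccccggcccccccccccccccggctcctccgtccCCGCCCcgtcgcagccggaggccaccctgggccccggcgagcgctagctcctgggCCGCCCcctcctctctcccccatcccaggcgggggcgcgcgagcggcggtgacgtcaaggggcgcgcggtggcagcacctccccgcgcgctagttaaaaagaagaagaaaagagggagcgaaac
Gli3: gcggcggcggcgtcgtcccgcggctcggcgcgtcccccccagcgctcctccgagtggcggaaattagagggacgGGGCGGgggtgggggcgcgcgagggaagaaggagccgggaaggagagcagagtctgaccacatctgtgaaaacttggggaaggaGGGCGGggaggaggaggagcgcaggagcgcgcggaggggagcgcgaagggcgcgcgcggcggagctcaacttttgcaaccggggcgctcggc

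The Gli consensus TGGGTGGTC was found in 0 of the 7 windows and in 0.225% of the 32851 windows of all genes, and the shorter TGGGTGG, which lies inside it, in 0 of the 7 and in 8.11% of all. A GC box was found in 6 of the 7 windows and in 32.7% of all. The share of G and C was 72.0% in the window of Ihh, 78.4% in that of Ptch1, 76.0% in that of Hhip and 72.8% in that of Gli3, against a median of 52.4% over all windows. The Gli consensus is so rare over all windows that its absence from 7 of them says little about these genes. These searches describe letters in short windows and say nothing about binding of a factor.

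Ihh rose after pre-differentiation and was the one member to pass the test. Its log2 signal was 7.06, 6.96 and 7.47 on after replicates 1, 2 and 3, against 5.64, 5.37 and 5.60 on before replicates 1, 2 and 3. All 3 after arrays lay above all 3 before arrays, and the after arrays were close to each other. The group means were 7.16 ± 0.27 (SD, n = 3) after and 5.53 ± 0.15 (SD, n = 3) before, a log2 change of 1.63 with a standard error of 0.18 and a 95% interval of 1.19 to 2.06, or 3.09-fold. The adjusted p from limma was 0.0354, with Benjamini-Hochberg adjustment over all rows. It was 0.0139 without after replicate 1 and between 0.0563 and 0.168 when any one of the other 5 arrays was left out, while the log2 change stayed between 1.47 and 1.73. With trended and robust variances the adjusted p was 0.0558.

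**Figure D1:**
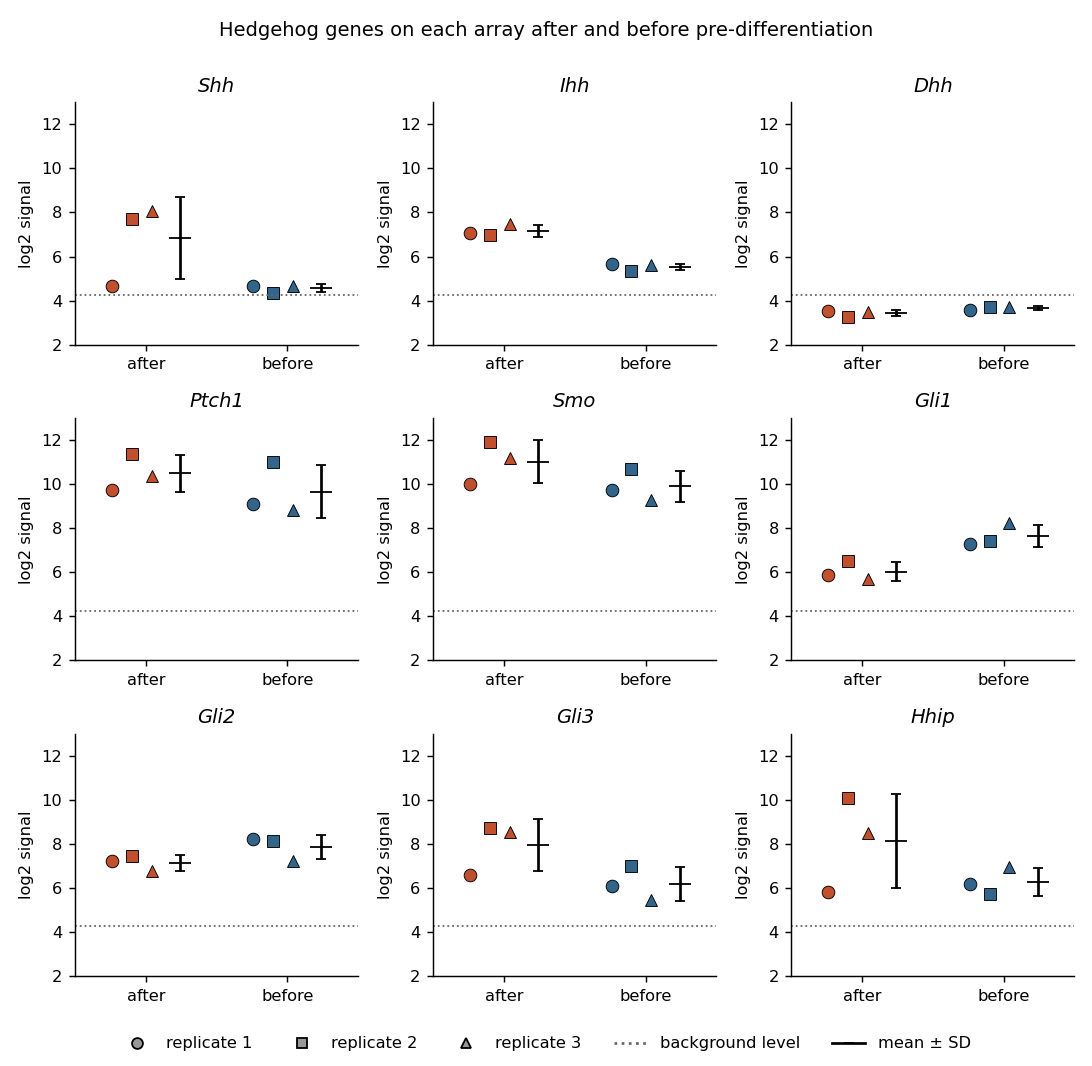
Log2 signal (vertical axis) of the 9 Hedgehog genes on the 3 arrays after pre-differentiation (left of each panel) and the 3 before it (right), with symbols for the replicate numbers, bars for mean ± SD and a dotted line at the background level of 4.27. Ihh lies between 6.96 and 7.47 on all after arrays, whereas Shh, Gli3 and Hhip are high on after replicates 2 and 3 and near the before arrays on after replicate 1.

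Shh was high on some of the after arrays and not on all. Its log2 signal was 4.68, 7.72 and 8.07 on after replicates 1, 2 and 3, against 4.66, 4.35 and 4.68 on the before replicates. After replicate 1 exceeded the highest before array by less than 0.01, so that the groups touch, and it lay not far above the background level of 4.27, the 95th percentile of the mean signals of 1716 olfactory and vomeronasal receptor genes. The log2 change was 2.26 with a standard error of 0.90 and a 95% interval of 0.06 to 4.46, and it did not pass (adjusted p = 0.193, limma). Without after replicate 1 it was 3.33 with a standard error of 0.19 (adjusted p = 0.00265, limma). When any other array was left out instead, the adjusted p was between 0.283 and 0.429 (limma).

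Dhh, the ligand gene best known from Sertoli cells and Schwann cells, stayed below the background level in both groups. Its log2 signal was 3.54, 3.27 and 3.49 on the after replicates and 3.55, 3.72 and 3.71 on the before replicates. All after arrays lay below all before arrays, by 0.01 at the closest, at levels where no RNA of the gene can be told from background. The log2 change of -0.22 (95% interval -0.54 to 0.09, adjusted p = 0.318, limma) was near the median of -0.18 over all rows.

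Ptch1, which encodes the receptor, and Smo, which encodes the transducer, were well above background in both groups and did not pass the test. The log2 signal of Ptch1 was 9.72, 11.38 and 10.39 on after replicates 1, 2 and 3, against 9.11, 11.03 and 8.85 on the before replicates. The groups overlapped, since before replicate 2 lay above after replicates 1 and 3. The log2 change was 0.83 with a 95% interval of -0.88 to 2.55 (adjusted p = 0.470, limma), or 0.542-fold to 5.85-fold. Without before replicate 2 it was 1.52 and without after replicate 2 it was 0.39.

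The log2 signal of Smo was 10.00, 11.90 and 11.18 on the after replicates, against 9.75, 10.68 and 9.29 on the before replicates. The groups overlapped here too, by before replicate 2 and after replicate 1. The log2 change was 1.12 with a 95% interval of -0.30 to 2.54 (adjusted p = 0.274, limma). Before replicate 2 was thus the highest before array for both Ptch1 and Smo.

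Hhip, whose product binds Hedgehog ligands at the cell surface and holds them back, had the widest spread of the members after pre-differentiation. Its log2 signal was 5.84, 10.07 and 8.50 on after replicates 1, 2 and 3, against 6.18, 5.72 and 6.97 on the before replicates. After replicate 1 lay among the before arrays, while after replicates 2 and 3 lay above them. The log2 change was 1.85 with a standard error of 1.07 and a 95% interval of -0.77 to 4.47 (adjusted p = 0.317, limma). It was 3.00 without after replicate 1 (adjusted p = 0.0442, limma) and 0.88 without after replicate 2. When any array except after replicate 1 was left out, the adjusted p was between 0.373 and 0.618 (limma).

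The Gli genes, none of which passed with all 6 arrays, had mean differences of unlike sign. Gli1 had a log2 signal of 5.86, 6.51 and 5.71 on the after replicates, against 7.28, 7.42 and 8.23 on the before replicates. All after arrays lay below all before arrays, after replicate 1 included. The log2 change was -1.62 with a standard error of 0.33 and a 95% interval of -2.43 to -0.80, or 0.326-fold, and it fell short of the threshold (adjusted p = 0.0756, limma). When each array was left out in turn, the change was between -1.86 and -1.33 and the adjusted p between 0.0820 and 0.222.

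Gli2 had a log2 signal of 7.22, 7.48 and 6.76 on the after replicates and 8.24, 8.15 and 7.23 on the before replicates. The groups overlapped by before replicate 3, and the log2 change was -0.72 with a 95% interval of -1.54 to 0.10 (adjusted p = 0.238, limma). Gli3 had a log2 signal of 6.59, 8.73 and 8.54 on the after replicates and 6.08, 6.99 and 5.48 on the before replicates. After replicates 2 and 3 were above all before arrays, and after replicate 1 was below before replicate 2. The log2 change was 1.77 with a 95% interval of 0.11 to 3.43 (adjusted p = 0.183, limma), or 2.45 without after replicate 1 (adjusted p = 0.0389, limma). When any other array was left out instead, the adjusted p was between 0.160 and 0.418 (limma).

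The difference between Gli3 and Gli1 within an array does not change when a constant is added to all log2 signals of that array. The rows of these genes have different probes, so the sign of the difference does not say which RNA was more abundant. Chosen after the values were seen, the log2 signal of Gli3 minus that of Gli1 was 0.73, 2.22 and 2.83 on the after replicates, against -1.20, -0.43 and -2.74 on the before replicates. The groups did not overlap, and their means differed by 3.38. This is a description of a pair picked for its unlike signs, and neither gene passed on its own with all 6 arrays. An exact permutation test over the arrays gave p = 0.1, the smallest that it can give here. It cannot judge a pair picked in this way.

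**Figure D2:**
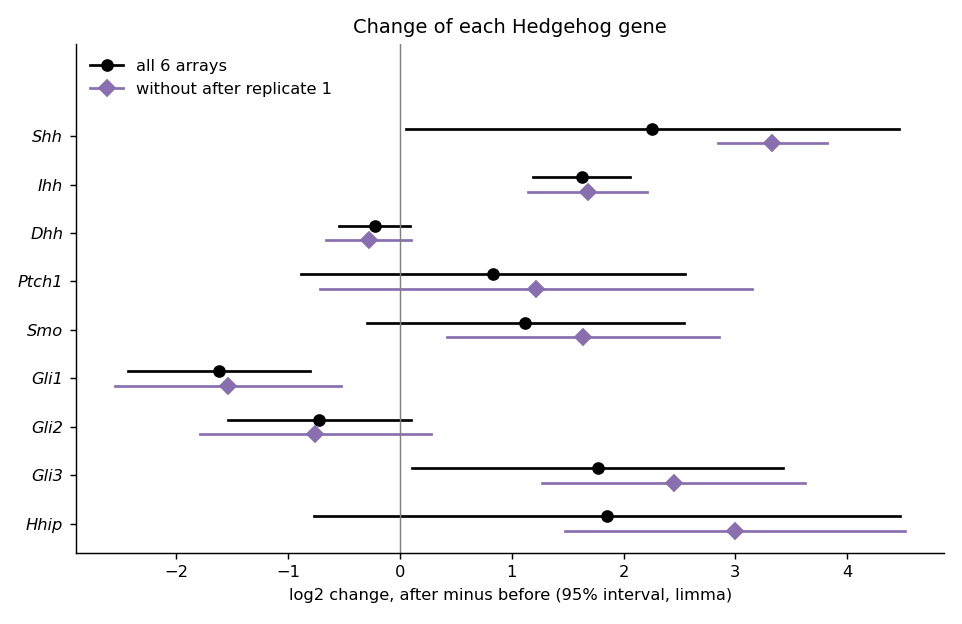
Log2 change after minus before pre-differentiation (horizontal axis) of each Hedgehog gene with its 95% interval from limma, for all 6 arrays (circles) and without after replicate 1 (diamonds). Ihh and Gli1 keep their places at 1.63 and 1.68 and at -1.62 and -1.53, while Shh moves to 3.33 and Hhip to 3.00 when after replicate 1 is left out.

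Of the 9 members, 1 was higher and 0 were lower at an adjusted p under 0.05 from limma, where 1.24% of all genes were higher and 0.65% lower. Of all calls 65.6% were thus higher, and 78.3% when each array was centred on its median. At an unadjusted p under 0.05 there were 4, 3 of them higher (Shh, Ihh, Gli3) and 1 lower (Gli1), where 30.6% of all genes passed. The groups did not overlap for 4 members, 2 with all after arrays on top and 2 with all after arrays beneath, where this held for 11.8% and 28.2% of all genes. The median log2 change was 1.12 over the members and -0.16 over all genes. Of the members 8 had a mean above background in a group, while all genes include those that set the background level. The sets are unlike in this. Without after replicate 1, 4 members were higher (Shh, Ihh, Gli3, Hhip) and 0 lower by limma, where 7.8% of all genes were higher and 7.48% lower.

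After replicate 1 separated the members into sets. Against the before mean, its log2 signal differed by 1.52 for Ihh, -1.78 for Gli1 and -0.65 for Gli2, close to the changes of 1.68, -1.53 and -0.75 found without that array. For Shh the difference was 0.12, for Ptch1 0.06, for Smo 0.09 and for Gli3 0.41, where the changes without that array were 3.33, 1.22, 1.64 and 2.45. For Hhip it was -0.45 against 3.00. The high signal of Ihh and the low signal of Gli1 were thus seen on all 3 after arrays, and the high signals of Shh, Gli3 and Hhip on 2 of them. These are values of a single array and were not tested.

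**Figure D3:**
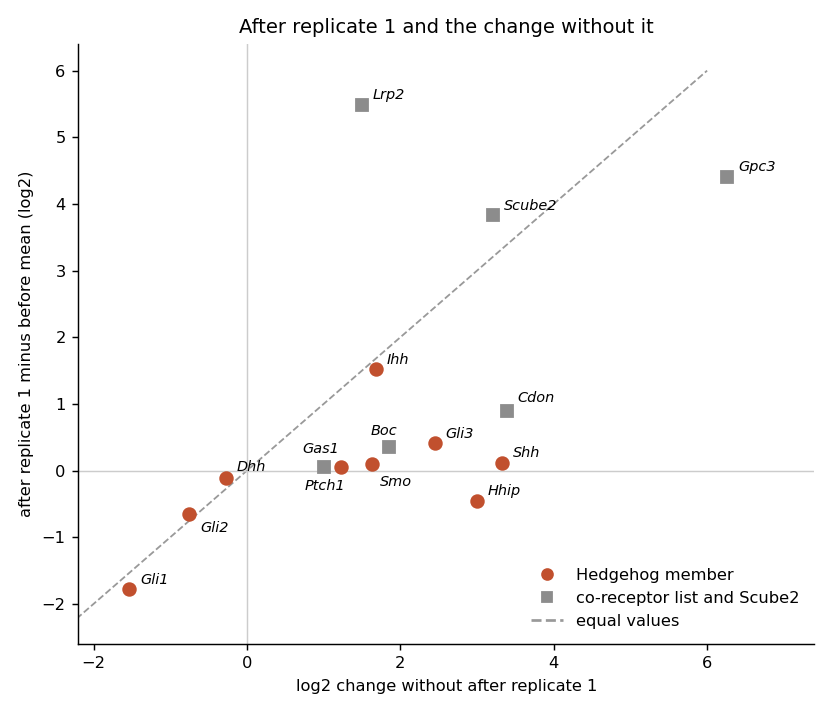
Log2 signal of after replicate 1 minus the before mean (vertical axis) against the log2 change found without after replicate 1 (horizontal axis) for the 9 members (circles) and for Scube2 and the co-receptor list (squares), with a dashed line where both are equal. Ihh, Gli1, Gli2 and Scube2 lie near the line, Lrp2 lies far above it, and Shh, Hhip, Gli3, Smo and Ptch1 lie near a vertical value of 0.

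After replicate 1 also stood apart over the array as a whole. On the leading principal component of the 5000 rows with the largest variance, which held 76.6% of that variance, it lay at -2.48, after replicates 2 and 3 at 131.4 and 130.9, and the before arrays between -109.3 and -63.9. Array medians were between 4.17 and 4.47. The mean log2 signal of 8 pluripotency markers (Nanog and Pou5f1 among them) was 11.44, 6.74 and 7.19 on after replicates 1, 2 and 3, and between 12.13 and 12.72 on the before arrays. Klf4 alone of the 8 had a higher mean after than before, at a log2 change of 0.49 (adjusted p = 0.398, limma). Of these 8 markers 0 passed by limma with all arrays (6 lower at an unadjusted p under 0.05), and 6 were lower without after replicate 1. Over all genes 30.6% passed before adjustment, and 7.48% were lower without after replicate 1. The part of these markers in the results was not tested.

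Among the other genes of the pathway, Scube2 and Gpc3, which act on the ligands, and the target gene Foxf2 rose after pre-differentiation. Of 66 other pathway genes listed, 60 were analysed here, each by a row of its own. Of the 60, 3 were higher and 0 lower by limma (before adjustment, 18 higher and 6 lower at p under 0.05), 57 had a mean above background in a group, and the median log2 change was 0.41, against -0.16 over all genes. Over all genes, those at background included, 1.24% were higher and 0.65% lower by limma, and 30.6% passed before adjustment. Without after replicate 1, 16 of the 60 were higher and 2 lower, where 7.8% and 7.48% of all genes were, and without any one of the other arrays 0 passed in either direction.

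Among 6 genes of ligand processing and release, 1 was higher. Scube2, which encodes a secreted protein that helps lipid-bearing Hedgehog ligands leave the cell, had a log2 signal of 9.94, 8.74 and 9.88 on the after replicates and 6.18, 6.30 and 5.83 on the before replicates. The groups were far apart, at a log2 change of 3.41 with a standard error of 0.36 (adjusted p = 0.0338, limma). As with Ihh, after replicate 1 was as high as the other after arrays. Disp1, the transporter that releases the ligands, had a log2 change of 1.14 (adjusted p = 0.101, limma), and Hhat, the enzyme that attaches palmitate to them, one of 0.27.

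In all 5 measured genes of the co-receptor list the after arrays lay above the before arrays without overlap, as in 11.8% of all genes. By limma 1 gene passed, where 1.24% of all genes were higher, and 3 without after replicate 1, where 7.8% were. Gpc3, a glypican that binds Hedgehog ligands and dampens the signal in the mouse, had a log2 signal of 12.69, 15.19 and 13.90 on the after replicates, against 7.06, 8.78 and 8.99 on the before replicates. Its log2 change was 5.65 with a standard error of 0.79 (adjusted p = 0.0458, limma). Cdon, a co-receptor that presents ligand to Patched, had 7.06, 9.78 and 9.33 on the after replicates and 6.17, 6.69 and 5.65 on the before replicates, a change of 2.56 that did not pass (adjusted p = 0.126, limma). Boc, its close relative, had a change of 1.35 (adjusted p = 0.150, limma) and Gas1 one of 0.68, with Gas1 below background before pre-differentiation. On after replicate 1 Gas1 was at 4.10, against 4.08 on before replicate 2. Both are below the background level, so the lack of overlap in Gas1 cannot be told from noise. Lrp2, or megalin, stood out by after replicate 1, with 14.49, 9.94 and 11.06 on the after replicates and 9.58, 9.59 and 7.83 on the before replicates (adjusted p = 0.219, limma).

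**Figure D4:**
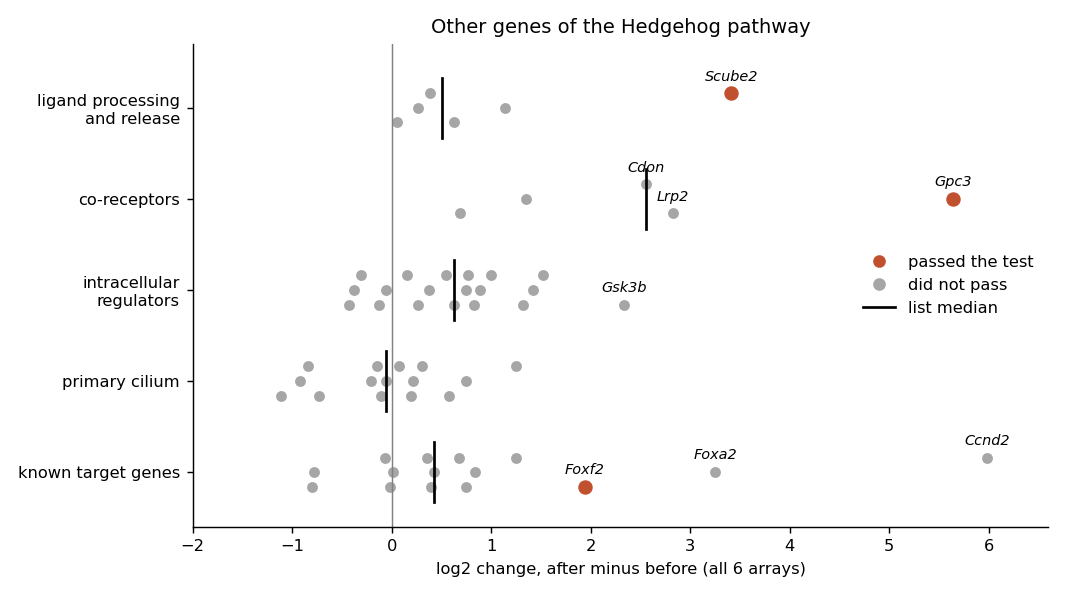
Log2 change after minus before pre-differentiation (horizontal axis) of 60 other Hedgehog pathway genes in 5 lists, each point a gene, with the list median as a vertical bar and genes past the limma threshold in orange. Scube2 (3.41), Gpc3 (5.65) and Foxf2 (1.94) passed, and the cilium list has its median at -0.06.

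Of 19 intracellular regulators, 0 passed by limma, and the median log2 change was 0.63. At an unadjusted p under 0.05, 5 were higher and 2 lower, where 30.6% of all genes passed in either direction. The nearest were Prkacb, a catalytic subunit of the protein kinase A that marks Gli proteins for processing, at 1.32 (adjusted p = 0.0973), and Gnas, the stimulatory G protein upstream of it, at 1.52 (adjusted p = 0.101, both limma). Sufu, the inhibitor that holds Gli proteins in the cytoplasm, was at 0.75 with overlapping groups. Of 15 primary cilium genes 0 passed by limma, and the median was -0.06. Before adjustment 3 were higher and 3 lower, where again 30.6% of all genes passed. The nearest were the basal body gene Ofd1 at -0.73 (adjusted p = 0.0572) and the transition zone gene Mks1 at -0.84 (adjusted p = 0.0961, both limma). In both the after arrays lay below the before arrays without overlap, as in 28.2% of all genes.

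Of 15 known target genes, 1 was higher, Foxf2, a forkhead factor of gut mesenchyme that answers to Hedgehog ligands. Its log2 signal was 7.64, 8.24 and 7.59 on the after replicates, against 5.90, 5.51 and 6.23 on the before replicates, a change of 1.94 (adjusted p = 0.0454, limma). With trended and robust variances the adjusted p was 0.0618, and Scube2 and Gpc3 alone of the 60 genes passed as higher. Its relative Foxf1 had 5.73, 7.21 and 6.16 on the after replicates and 5.62, 5.54 and 5.43 on the before replicates (adjusted p = 0.230, limma). Foxa2, a target in the floor plate and itself an endoderm factor, had a change of 3.25 (adjusted p = 0.0616) and the cell cycle gene Ccnd2 one of 5.99 (adjusted p = 0.0669, both limma). The neural target Nkx2-2 and the sclerotome target Nkx3-2 were below background in both groups, and Mycn had a change of -0.80 with overlapping groups. The median over the list was 0.43.

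Markers of several cell types, some of them known to make or receive Hedgehog ligands, differed between the groups as well. The mean log2 signal of 8 visceral endoderm markers was 9.88, 12.08 and 10.54 on after replicates 1, 2 and 3 and between 5.61 and 6.21 on the before arrays. By limma 1 of them was higher (6 without after replicate 1), where 1.24% of all genes were (7.8% without that array). In 7 of the 8 all after arrays were above all before arrays, as in 11.8% of all genes. For 7 parietal endoderm markers the mean was 13.54, 14.02 and 14.89 on the after replicates and between 8.62 and 9.47 on the before arrays, with 6 higher by limma. On after replicate 1 the means of both endoderm lists lay above the before range, and so did those of the lateral plate, endothelial and node lists given next.

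For 6 lateral plate markers the mean was 5.02, 7.86 and 6.39 on the after replicates and between 4.42 and 4.54 on the before arrays, and 0 passed by limma (5 higher at an unadjusted p under 0.05, 4 higher without after replicate 1). Over all genes 30.6% passed before adjustment in either direction, and 7.8% were higher without after replicate 1. These shares also stand beside the counts of the lists that follow. By list mean, after replicate 1 was the lowest after array in the lateral plate list and in every other list of this kind except pluripotency. The means thus single out no cell type by this trait, but single markers did not all share it. Cubn, of the visceral endoderm list, had 16.79, 11.66 and 10.70 on after replicates 1, 2 and 3. Amn and Hnf4a were also highest on after replicate 1, and the other visceral endoderm markers were lowest there. For 6 endothelial markers the mean was 6.63, 7.33 and 7.46 on the after replicates and between 5.57 and 5.64 on the before arrays, with 1 of them, Cdh5, higher by limma and Tie1 below background in both groups. Pecam1, of the same list, had 8.69, 5.71 and 5.11 on the after replicates and 9.44, 8.78 and 9.93 on the before replicates, a log2 change of -2.88 (adjusted p = 0.151, and 0.00827 without after replicate 1, limma). Before adjustment, 3 endothelial markers were higher and 1 lower. Of the node and notochord list 4 of 6 genes were measured, with Noto, a defining gene of the node, below background in both groups. The mean of these 4 was 5.25, 5.94 and 6.04 on the after replicates and between 4.71 and 4.86 on the before arrays, and 0 passed by limma (2 higher at an unadjusted p under 0.05). The 4 genes did not move together. Foxa2, itself an endoderm factor, had the largest log2 change at 3.25, and Nog was at 1.09. In Chrd, at -0.25 and close to background, and in Noto all after arrays lay below all before arrays, as in 28.2% of all genes. For 5 neuroectoderm markers the mean was 5.41, 6.15 and 6.84 on the after replicates and between 5.29 and 5.57 on the before arrays, with Hes5 below background and 0 past the limma threshold (before adjustment, 2 higher and 2 lower at p under 0.05). Zic1 had by far the largest log2 change of the 5, at 3.73, and Olig2 was at 0.76, while Sox1 and Pax6 were both at -0.59. The part of any of these cell types in the levels of the Hedgehog genes was not tested.

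Genes with the most similar pattern over the 6 arrays were sought among 14141 genes above background, by the root-mean-square distance between log2 profiles, each centred on its own mean. For Ihh they were Nucb1 (distance 0.08), Fez2 (0.09) and Lamp1, a lysosomal membrane protein (0.11). For Shh they were the transcription factor gene Tfap2b (0.14), Vgll3 (0.21) and the keratin gene Krt15 (0.25). For Hhip they were Foxa1, a forkhead factor of endoderm (0.34), and the matrix protein genes Prelp (0.36) and Mgp (0.38). For Gli3 they were Zfp334 (0.07), Mcc (0.17) and Ehd3 (0.19), and for Gli1 they were Cdk10 (0.22), Rad9b (0.23) and Rfc3, a clamp loader subunit of DNA replication (0.24). For Ptch1 they were Ubtd2 (0.23), Chsy1 (0.30) and Fosb (0.33), for Smo Maml2 (0.15), Bcl9 (0.15) and Mtss2 (0.18), and for Gli2 Tecr (0.15), Ighv6-6 (0.17) and Exosc10 (0.17). All 24 profiles had a Pearson r of at least 0.94 with the member over the 6 arrays, as the search selects for it, and no test applies.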

How the data were processed

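Total RNA of encapsulated R1 stem cell aggregates was biotin labelled and hybridised to Clariom D mouse arrays. The log2 signals of 72688 rows were deposited by the authors from Transcriptome Analysis Console. Its version and its summarization settings were not stated. The values were used as given. Rows whose identifier starts with AFFX (31) were left out, and 6701 other control rows stayed in the fit. Of the 72657 rows tested, 30638 carry 1 gene symbol and 2176 several, which name no gene here. A gene is represented by its row with the highest mean over the 6 arrays, which gives 30176 genes.

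After and before arrays were compared by limma (version 3.58.1, R 4.3.3) with lmFit and eBayes, two-sided and without covariates, with Benjamini-Hochberg adjustment over all rows and a threshold of 0.05. The methods name no test for the arrays; Student's two-tailed test, named there for other in vitro data, was tried as an alternative ("the methods' test"). The background level of 4.27 is the 95th percentile of the mean log2 signal of 1716 receptor genes of smell and pheromones, since the table gives no detection p. The number of arrays limits the precision. The fit was tested on simulated data, and figures were drawn with Python 3.11.15.

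The members, the pathway lists, the marker lists and the tests were chosen with earlier results of these data known. Named were all members, the pathway genes past the threshold (or the 2 with the smallest p in a list with none) and the 3 nearest profiles of each member above background. Other pathway and marker genes were named after their values were seen. Tried besides were median centring, quantile normalization, removal of dim rows or of control rows, trended and robust variances, averaging over the rows of a gene, a block for the replicate number, and omission of each array in turn. Promoter sequences are from RefSeq (GRCm38.p6), and no coordinates of array rows were used.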

Additional observations from a re-analysis of the deposited data

How the results depend on the processing

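All 9 members and the 7 pathway genes named by rule kept their direction under every alternative that gave a value; Dhh has none with either filter on dim rows. The number of members that were higher was 1 with all arrays and 0 with trended and robust variances, 0 with the methods' test after adjustment and 0 under a replicate block. It was between 0 and 4 when each array was left out, the 4 without after replicate 1 and 0 without any other array. The number of members that were lower was 0, and 1 (Gli1) with the methods' test unadjusted. Of the other pathway genes, 3 were higher with all arrays, 5 with rows above background, 5 with rows brighter than the median row, 14 with the methods' test unadjusted, 0 with it adjusted and 0 with the replicate block, and 0 to 16 when each array was left out. None was lower with all arrays, 1 with control rows left out (Ofd1), 5 with the methods' test unadjusted, and 0 to 2 when each array was left out, the 16 and the 2 without after replicate 1. The filters and the removal of control rows test fewer rows; for the other settings the cause was not tested.

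With the replicate number as a block the adjusted p of Ihh was 0.102. By limma with this block the adjusted p fell to 0.216 for Ptch1, 0.204 for Smo and 0.156 for Gli2. It rose for Shh, Ihh, Dhh, Gli1, Gli3 and Hhip. The labels link the replicates only by a number, and deviations of same-numbered arrays correlated at -0.05, 0.18 and -0.15. With 3 arrays in a group and after replicate 1 far from the others, these correlations cannot show whether the numbers mark pairs. Quantile normalization and median centring moved the change of Ihh to 1.80 and 1.81 and that of Gli1 to -1.45 and -1.43, and the median change over all rows was -0.18 as deposited.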
